A study of Mus musculus with 10 samples.

Results

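Transcripts of antioxidant enzymes were compared between aortic arches of mice without apolipoprotein E and MyD88 (ApoE-/-,MyD88-/-, here double-null) and of mice without apolipoprotein E alone (ApoE-/-, here apoE-null). The genes were chosen by name, as 10 enzymes that remove superoxide and peroxides: Sod1, Sod2, Sod3, Cat, Gpx1, Gpx3, Gpx4, Prdx1, Prdx5 and Prdx6. Of these, 8 were matched to a probe by the platform's gene symbols, with 1 probe each, and all 8 had a value on each of the 10 arrays. Prdx5 and Prdx6 were not analysed here. The 8 genes are part of 4299 genes that could be tested. Each array set RNA of 1 double-null mouse against RNA of 1 apoE-null mouse, and each of 5 mouse pairs was hybridised on 2 arrays with the dyes exchanged, so n is 5 pairs. In pair 1 the dye exchange rests on the genotype labels, because the mouse numbers carry exchanged genotypes between its 2 arrays. Both mice of pair 1 were females and those of pairs 2, 3 and 4 males. Pair 5 joined a male double-null mouse with a female apoE-null mouse, so in that pair sex and genotype cannot be told apart. All mice lacked apolipoprotein E, whose loss raises plasma cholesterol and leads to plaques, and the labels of most arrays state a high fat diet of 8 weeks. The labels used here state no ages. Values are log2 ratios of double-null over apoE-null, so a positive value means more transcript in double-null aorta. A ratio carries no level, and in whole tissue fewer cells of a type and less RNA per cell cannot be told apart.

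Superoxide dismutases turn superoxide into hydrogen peroxide, and catalase, glutathione peroxidases and peroxiredoxins then reduce the peroxide, the peroxidases at the expense of glutathione or thioredoxin. In the artery wall superoxide destroys nitric oxide and oxidises lipoproteins, and these enzymes limit both. MyD88 is the adaptor through which interleukin-1 and most Toll-like receptors activate the transcription factor NF-κB, and Sod2 is a well known NF-κB target. The factor Nrf2 acts through the antioxidant response element and drives genes such as Prdx1.

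Myd88 fell in double-null mice. Its log2 ratio was -0.90 ± 0.22 (SD, n = 5 pairs, limma adjusted p = 0.0269) and was below 0 in all 5 pairs. With any 1 pair left out its adjusted p by limma was between 0.0558 and 0.124, so the call at 0.05 was lost. Where its probe lies relative to the deletion was not examined. Apoe, disrupted in all mice, had -0.36 ± 0.15 (SD, n = 3 pairs, adjusted p = 0.531). Arrays held between 4581 and 7057 values, and the 2 arrays of a pair correlated across probes at 0.04 in pair 3 and between 0.19 and 0.56 in the other pairs. Markers of vessel wall cells were measured, with ratios for 7 of 11 smooth muscle genes and 8 of 11 endothelial genes.

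The promoters of 4 enzymes are shown because they differ in the elements named above and belong to genes whose ratios are described below. Each runs 5′ to 3′ in the direction of transcription, from 250 bases before to 50 bases after the RefSeq start (GRCm38.p6), and capitals mark matches to the antioxidant response element core TGACNNNGC or to the NF-κB consensus on either strand. The windows lie at chr17:13007589-13007888 (Sod2, plus strand), chr4:116685349-116685648 (Prdx1, plus strand), chr16:90220512-90220811 (Sod1, plus strand) and chr11:54902604-54902903 (Gpx3, plus strand).
Sod2: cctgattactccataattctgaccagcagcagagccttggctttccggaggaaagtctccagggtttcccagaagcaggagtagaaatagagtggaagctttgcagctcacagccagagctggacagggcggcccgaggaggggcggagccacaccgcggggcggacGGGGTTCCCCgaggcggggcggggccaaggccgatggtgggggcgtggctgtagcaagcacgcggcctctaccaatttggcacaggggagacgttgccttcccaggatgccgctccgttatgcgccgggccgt
Prdx1: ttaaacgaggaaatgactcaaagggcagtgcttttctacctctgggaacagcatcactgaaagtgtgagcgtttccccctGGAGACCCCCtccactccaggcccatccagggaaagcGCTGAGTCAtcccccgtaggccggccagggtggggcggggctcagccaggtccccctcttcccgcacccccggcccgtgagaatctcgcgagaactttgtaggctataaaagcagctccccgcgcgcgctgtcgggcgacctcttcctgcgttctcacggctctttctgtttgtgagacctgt
Sod1: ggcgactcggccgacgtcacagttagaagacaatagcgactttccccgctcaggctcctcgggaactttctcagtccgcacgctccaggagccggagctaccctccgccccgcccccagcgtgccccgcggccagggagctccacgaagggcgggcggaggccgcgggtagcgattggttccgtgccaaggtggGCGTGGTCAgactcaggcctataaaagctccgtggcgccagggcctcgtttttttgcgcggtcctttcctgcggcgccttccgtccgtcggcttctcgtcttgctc
Gpx3: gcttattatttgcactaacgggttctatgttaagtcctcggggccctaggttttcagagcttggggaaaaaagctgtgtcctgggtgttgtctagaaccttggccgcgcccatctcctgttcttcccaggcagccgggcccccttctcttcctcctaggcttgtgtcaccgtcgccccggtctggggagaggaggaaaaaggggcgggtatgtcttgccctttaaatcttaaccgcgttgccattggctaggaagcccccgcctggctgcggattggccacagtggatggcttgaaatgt

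The Sod2 window held an NF-κB match that starts at base -83, counted from the start site, and reads on both strands. Prdx1 held an NF-κB match starting at -170 and a response element core starting at -133, both on the opposite strand, and Sod1 held a core at -56 on the opposite strand. The Gpx3 window held neither, nor did those of Cat, Gpx1 and Gpx4. The 32851 promoter windows searched for comparison did not cover every chromosome. Of these, 12.4% held the core and 4.51% the NF-κB consensus. A match is a description of letters, and a window without one says nothing of the factor.

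None of the 8 enzymes passed the test between genotypes. The limma test (mean pair ratio against 0, Benjamini-Hochberg adjustment over 4299 genes, threshold 0.05) called 0 of 8, against 0.814% of all genes tested. At an unadjusted p under 0.05 there was 1 of 8, Gpx4, against 9.47% of all genes. No enzyme kept 1 sign in all 5 pairs, which 10.7% of genes with 5 pair values did. Of the 8 mean ratios 3 were positive (Gpx4, Sod2 and Sod1) and 5 negative, with a median of -0.08, beside -0.04 for all genes tested. No enzyme was called for a dye effect by limma (0 of 8 at adjusted p under 0.05, against 4.82% of all genes). The lowest unadjusted p of the 8 in that test was 0.118.

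Sod1, the copper and zinc enzyme of the cytosol, read 0.32, -0.12, -0.14, 0.12 and 0.55 in pairs 1 to 5 with double-null RNA in channel 1. On the swapped arrays it read 0.90, 0.09, 0.37, 0.22 and 0.42. Of its 10 values 8 were above 0. Its mean was 0.27 ± 0.26 (SD, n = 5 pairs, adjusted p = 0.531), with a 95% interval from limma of -0.02 to 0.57. This interval, in which limma draws each gene's spread towards that of all genes, covers fold changes from 0.986 to 1.48.

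Sod2, the manganese enzyme of the mitochondrial matrix, differed widely between the pairs and hardly between the arrays of a pair. With double-null RNA in channel 1 its log2 ratios were 1.91, -0.20, -0.67, 0.75 and 0.24 in pairs 1 to 5. The swapped arrays gave 1.77, -0.35, -0.80, 0.74 and 0.04. The sign was the same on the partner arrays of every pair, positive in pairs 1, 4 and 5 and negative in pairs 2 and 3, and partners lay at most 0.20 apart. The mean was 0.34 ± 1.00 (SD, n = 5 pairs, adjusted p = 0.720), with a 95% interval of -0.41 to 1.09. Without pair 1 it was -0.03, and in the 3 male pairs alone -0.09.

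Sod3, the secreted enzyme that binds to the matrix of the artery wall, had values that changed with the array. They were 0.21, -0.69, 0.95, 0.22 and -0.32 with double-null RNA in channel 1, and -0.64, -0.03, 0.06, -0.64 and -0.24 on the swapped arrays. Partner signs matched in 3 of 5 pairs, and the mean distance between partners, 0.67, was the largest of the 8 enzymes. The mean ratio was -0.11 ± 0.35 (SD, n = 5 pairs, adjusted p = 0.781), with a 95% interval of -0.45 to 0.23. It was 0.07 over the channel 1 arrays and -0.30 over the swapped ones. The pair value of 0.50 in pair 3 stood above the other 4, which lay between -0.36 and -0.21.

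Cat, catalase, which breaks down hydrogen peroxide in peroxisomes, read 0.65, -0.45, -0.93, 0.71 and 0.06 in pairs 1 to 5 with double-null RNA in channel 1. The swapped arrays read 0.75, -1.06, -0.31, 0.04 and 0.03. It was above 0 on all arrays of pairs 1, 4 and 5 and below 0 on all arrays of pairs 2 and 3, as Sod2 was. The mean of these opposed pairs was -0.05 ± 0.63 (SD, n = 5 pairs, adjusted p = 0.945), with a 95% interval of -0.56 to 0.45. It became 0.12 without pair 2 and 0.09 without pair 3.

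The glutathione peroxidases are selenium enzymes with different sites of action. Gpx1, the main peroxidase of the cytosol, was below 0 on 9 of 10 arrays. It read -0.67, -0.18, -0.33, -0.05 and -0.0027 with double-null RNA in channel 1, and -0.47, -0.20, -0.12, -0.11 and 0.26 on the swapped arrays. Its mean was -0.19 ± 0.26 (SD, n = 5 pairs, adjusted p = 0.626). The 95% interval was -0.48 to 0.10, or fold changes from 0.717 to 1.08.

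Gpx3, the secreted peroxidase found in plasma, had the widest range of the 8 enzymes. It read 1.67, -0.71, -0.35, 0.47 and -2.17 in pairs 1 to 5 with double-null RNA in channel 1. The swapped arrays gave 1.70, -0.30, -0.61, 0.75 and -1.499. Each pair kept its sign on both arrays, high in pairs 1 and 4 and low in pairs 2, 3 and 5. Within pair 1 the Gpx3 ratio lay at the 98.0th percentile of all genes with a value there, and within pair 5, the pair of unlike sex, at the 0.15th. The mean was -0.11 ± 1.32 (SD, n = 5 pairs, adjusted p = 0.943), with a 95% interval of -1.08 to 0.87. Without pair 5 it was 0.33.

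Gpx4, which reduces lipid peroxides within membranes and protects cells from ferroptosis, had the largest mean of the 8. It read 0.66, 0.21, -0.62, 0.56 and 0.39 with double-null RNA in channel 1, and 1.48, -0.01, 0.34, 0.58 and 0.46 on the swapped arrays. Of its 10 values 8 were above 0, and the partner arrays of pairs 2 and 3 lay on opposite sides of 0. The mean of 0.41 ± 0.46 (SD, n = 5 pairs) missed the threshold (adjusted p = 0.521), with a 95% interval of 0.01 to 0.81, or fold changes from 1.00 to 1.75.

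Prdx1, a cytosolic peroxiredoxin that is recycled by thioredoxin, read -0.55, 0.25, -0.53, -0.33 and -0.07 with double-null RNA in channel 1. The swapped arrays gave -0.05, 0.13, -0.13, -0.49 and 0.27. It was below 0 in pairs 1, 3 and 4 and above 0 in pairs 2 and 5, a different division from that of Sod2 and Cat. The mean was -0.15 ± 0.27 (SD, n = 5 pairs, adjusted p = 0.690), with a 95% interval of -0.45 to 0.15.

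**Figure D1:**
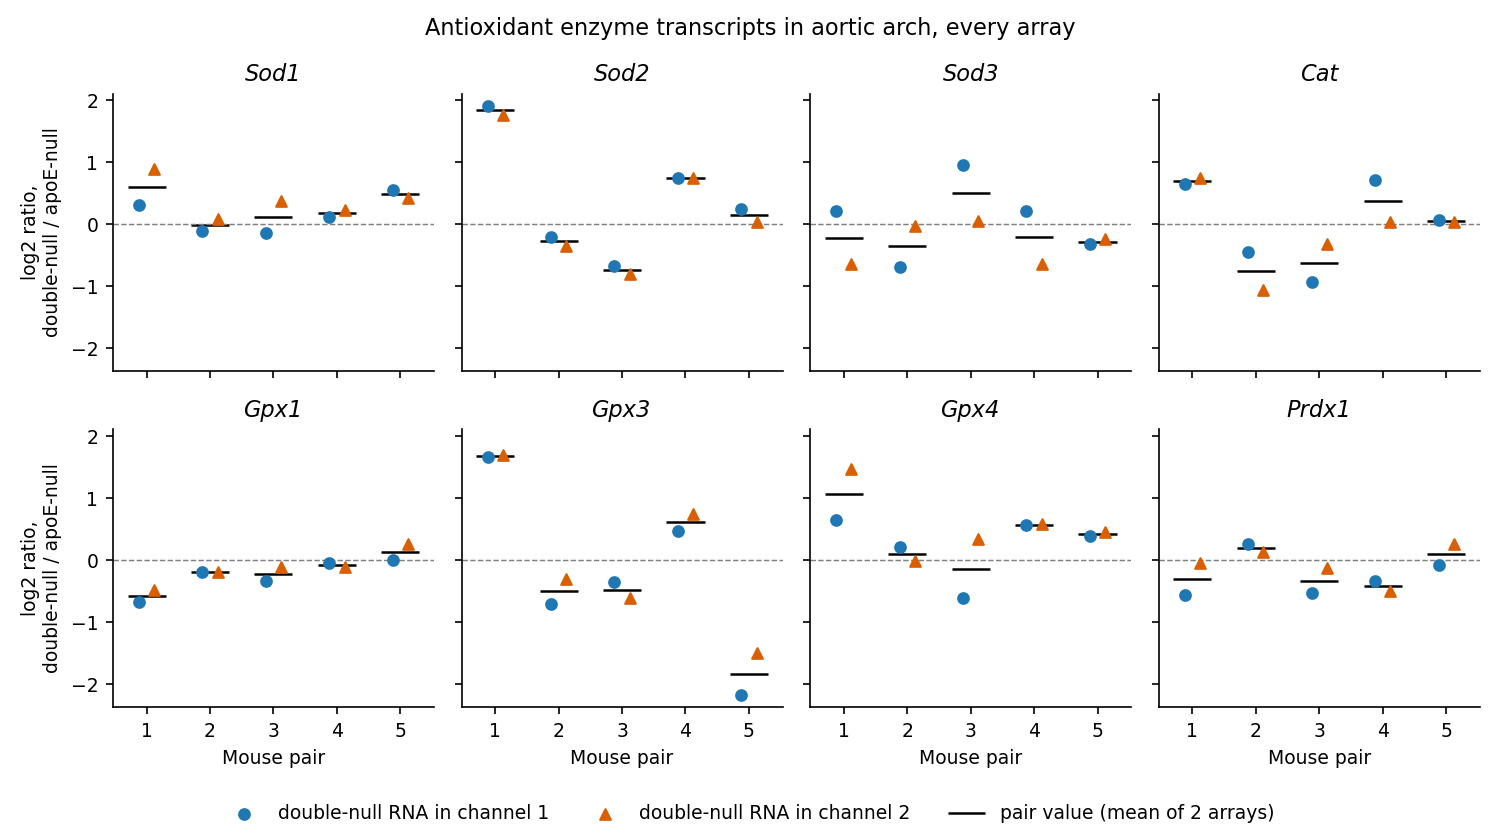
Log2 ratios of double-null over apoE-null (vertical axis) in mouse pairs 1 to 5 (horizontal axis) for the 8 enzymes. Circles are arrays that carried the double-null sample in channel 1, triangles the dye-swapped arrays, and bars the pair values. Sod2 and Gpx3 spread over 2.57 and 3.52 log2 units between pairs, while their partner arrays lie at most 0.20 and 0.67 apart. Gpx1 lies below 0 on 9 of 10 arrays.

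The enzymes differed most in how much the mouse pairs varied. The SD between pairs was 1.32 for Gpx3 and 1.00 for Sod2, at the 99.3rd and 97.9th percentile of 3192 genes with values in 5 pairs. It was 0.63 for Cat (91.1st percentile) and 0.46 for Gpx4 (80.0th), and between 0.26 and 0.35 for Sod1, Sod3, Gpx1 and Prdx1 (37.8th to 61.4th). Whether pairs differed by more than the arrays of 1 pair was tested with limma's F test of pair over the 10 arrays, with a dye term. It was added after this spread was seen, so its calls describe the same spread and are no independent evidence of it. It called 4 of 8 enzymes, against 30.9% of the 3192 genes: Gpx3 (adjusted p = 2.34e-06), Sod2 (adjusted p = 7.53e-06), Cat (adjusted p = 0.00532) and Gpx4 (adjusted p = 0.0353). Partner arrays share their 2 mice, so this test compares individual pairs and not genotypes. Without pair 1 it called 2 enzymes, Sod2 (adjusted p = 0.00545) and Gpx3 (adjusted p = 0.00106). Gpx4 was also lost without pair 3 (adjusted p = 0.0595) and without the dye term (adjusted p = 0.158).

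**Figure D2:**
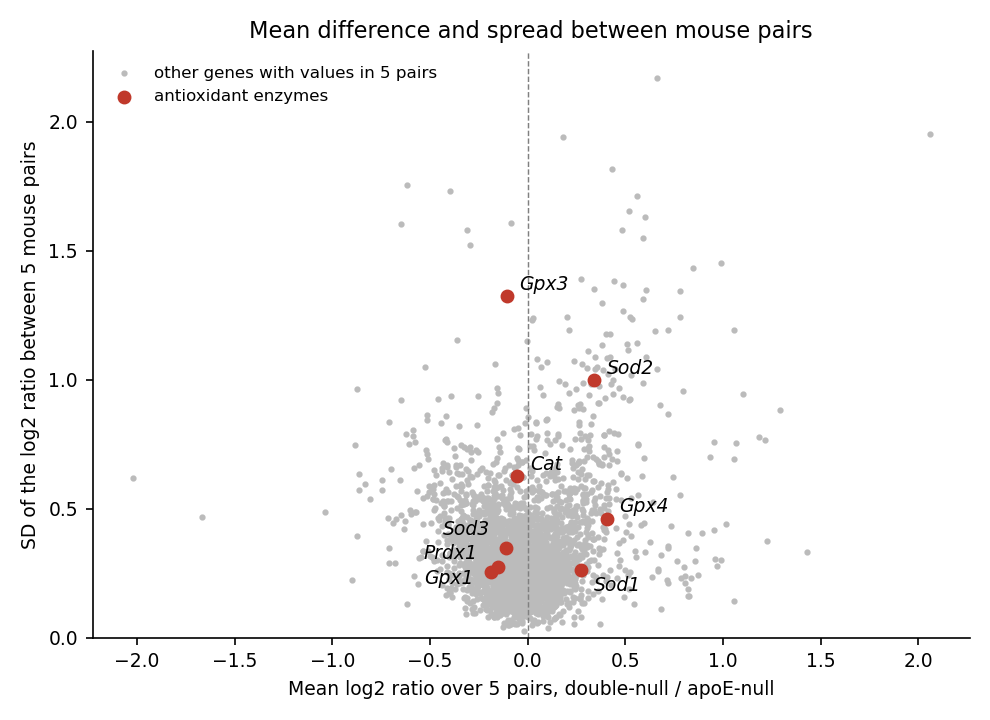
Mean log2 ratio over 5 pairs (horizontal axis) and SD of the ratio between the 5 pairs (vertical axis) for genes with values in all pairs. Red points are the 8 enzymes, whose means lie between -0.19 and 0.41 while their SDs run from 0.26 to 1.32.

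The 4 enzymes with the largest SD between pairs were all above 0 in pairs 1 and 4. In pair 1 the pair values were 1.84 for Sod2, 1.69 for Gpx3, 1.07 for Gpx4 and 0.70 for Cat, and in pair 4 they were 0.74, 0.61, 0.57 and 0.37. In pair 3 all 4 were below 0, and in pair 2 all except Gpx4 (0.10). Pair 5 separated them, with Gpx3 at -1.84 and the other 3 between 0.05 and 0.43. Gpx1, Prdx1 and Sod3 were below 0 in pairs 1 and 4, at -0.57, -0.30 and -0.22 in pair 1 and -0.08, -0.41 and -0.21 in pair 4. Sod1 was above 0 in both, at 0.61 and 0.17.

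The medians of fat cell markers were likewise high in pairs 1 and 4. The 9 measured white adipocyte markers had medians of 1.80, -0.31, -0.39, 0.93 and -0.43 in pairs 1 to 5. Those of 6 brown adipocyte markers were 2.30, 0.18, -0.58, 1.44 and -0.23. In pair 5 both lists were below 0 while Sod2, Gpx4 and Cat were above it. The adipokine Adipoq and the brown fat uncoupling protein Ucp1 were at 2.40 and 2.51 in pair 1. The lipase Lpl was at -0.39 in pair 1 and the elongase Elovl3 at -0.25 in pair 4, against their lists. These 4 genes were picked after their values were seen. The median of 14 macrophage markers was -1.13, -0.38, -0.75 and -0.61 in pairs 1 to 4 and 0.12 in pair 5, and that of 7 smooth muscle markers was -0.50, -0.22, 0.32, 0.07 and -0.37 in pairs 1 to 5. In the macrophage list all 14 mean ratios were negative, and 9 had an unadjusted p under 0.05 by limma, against 9.47% of all genes. The white adipocyte, brown adipocyte and smooth muscle lists had 0 at that unadjusted threshold. At an adjusted p under 0.05, which 0.814% of all genes passed, these 4 lists held 1 call. It was the macrophage gene Cd5l (log2 -2.02, adjusted p = 0.0126). That call was lost without pair 2, 3 or 4 (adjusted p = 0.114, 0.0550 and 0.0846 by limma). The part of fat tissue in the enzyme ratios was not tested. In pair 5 the value of Gpx3, -1.84, was below both adipocyte medians.

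**Figure D3:**
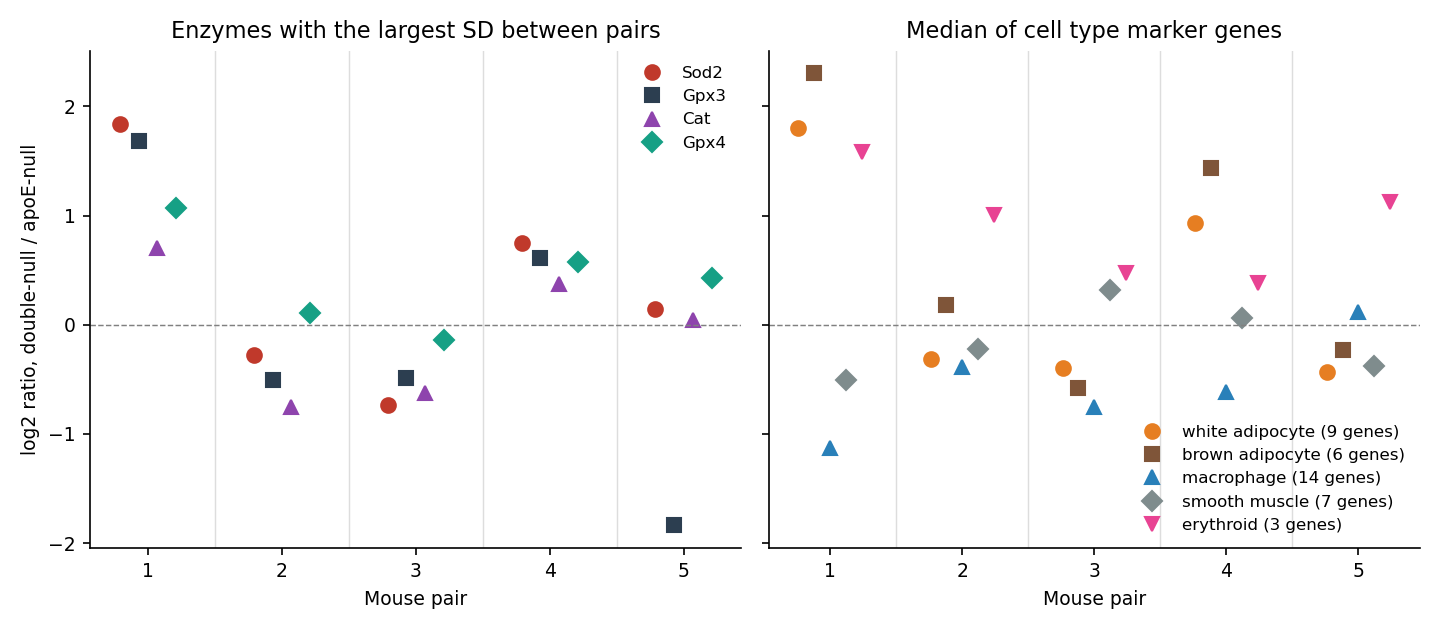
Log2 ratios of double-null over apoE-null (vertical axis) by mouse pair (horizontal axis) for the 4 enzymes with the largest SD between pairs (left) and for the medians of 5 marker lists (right). Sod2, Gpx3, Gpx4, Cat and both adipocyte medians are above 0 in pairs 1 and 4, and Gpx3 is at -1.84 in pair 5, where the adipocyte medians are -0.43 and -0.23.

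For Sod2 and Gpx3, the enzymes with the widest ranges, the 3 genes with the nearest pair values were looked up. For Sod2, by mean absolute difference over 5 pairs, among 3191 other genes, these were Cox5a, a subunit of cytochrome c oxidase (0.08), Apoo, a protein of the mitochondrial inner membrane (0.08), and Amz2, a metallopeptidase (0.10). Cox5a had 1.85, -0.30, -0.70, 0.99 and 0.20 in pairs 1 to 5, beside 1.84, -0.28, -0.74, 0.74 and 0.14 for Sod2. The nearest to Gpx3 were Naalad2, a dipeptidase (0.14), Mptx1, a pentraxin (0.17), and Snx3, a sorting nexin (0.21), each at -1.47 or below in pair 5. Among the 8 enzymes themselves the closest pair values were those of Gpx1 and Prdx1, on average 0.23 apart, and of Sod1 and Gpx4, 0.26 apart.

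The female pair minus the mean of the 3 male pairs was 1.93 for Sod2, 1.81 for Gpx3, 1.04 for Cat, 0.89 for Gpx4 and 0.51 for Sod1. It was -0.41 for Gpx1, -0.19 for Sod3 and -0.12 for Prdx1. With 1 female pair, sex and the mice of that pair cannot be told apart.

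Other genes of the antioxidant system likewise gave no call. From 11 lists with 162 genes, 76 genes were tested and 0 passed, with 44 positive and 32 negative ratios, a median of 0.06 and a lowest adjusted p of 0.0991. At an unadjusted p under 0.05 there were 8 of 76, or 10.5%, close to the 9.47% of all genes. Of these, 3 were positive (Gstt1, Glrx and Cox17) and 5 negative (Selenop, Xdh, Nxn, Fth1 and Ugdh), and all except Selenop and Xdh were singled out here after their values were seen.

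Among peroxidases outside the 10, Prdx2, the abundant peroxiredoxin of red cells, varied little between pairs, at 0.16 ± 0.09 (SD, n = 5 pairs, adjusted p = 0.601) and above 0 in 5 of 5 pairs. The mitochondrial Prdx3 had 0.37 ± 0.80 (SD, n = 4 pairs) and 1.46 in pair 1. Prdx4 of the endoplasmic reticulum had -0.09 ± 0.58 and Gpx7, of the same compartment, -0.02 ± 0.10 (SD, n = 5 pairs). The list median of 6 such genes was 0.07.

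The glutathione and thioredoxin systems, which supply these enzymes with electrons, had list medians of 0.03 (5 genes) and -0.06 (5 genes). Gclm, the modifier subunit of the enzyme that limits glutathione synthesis, had 0.18 ± 0.36, and the thioredoxins Txn1 and Txn2 had -0.13 ± 0.14 and 0.13 ± 0.37 (SD, n = 5 pairs). Txnip, which binds and inhibits thioredoxin, had 0.08 ± 0.24 (SD, n = 5 pairs). Of 15 glutathione transferases 12 were positive and 0 passed, with a median of 0.19. Gstm1 had 0.09 ± 0.28, Gstp1 -0.02 ± 0.15 and the microsomal Mgst1 -0.07 ± 0.66 (SD, n = 5 pairs). Mgst1 stood at 0.94 in pair 1.

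Of 12 Nrf2 targets and regulators 9 were negative and 0 passed, with a median of -0.07 and single genes between -0.46 (Fth1, a ferritin subunit) and 0.21. The quinone reductase Nqo1 had 0.21 ± 0.31 (SD, n = 5 pairs), the heme-degrading Hmox1 -0.24 ± 0.68 (SD, n = 4 pairs) and Keap1, which holds Nrf2 back, -0.01 ± 0.13 (SD, n = 5 pairs). Among metal handling genes the copper chaperones Atox1 and Ccs had 0.16 ± 0.15 (SD, n = 5 pairs) and 0.20 ± 0.37 (SD, n = 3 pairs). Ccs loads copper into Sod1.

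Mt2, a zinc and copper binding metallothionein, had a larger SD between pairs than any of the 8 enzymes, though its range of 3.26 was below the 3.52 of Gpx3. It had -2.58 and -2.51 in pairs 1 and 5 and 0.65, 0.69 and 0.65 in pairs 2, 3 and 4, with a mean of -0.62 ± 1.76 (SD, n = 5 pairs, adjusted p = 0.705). Its pairs differed beyond their arrays by the F test of pair (adjusted p = 7.46e-08). The low pairs are those with a female apoE-null mouse, a grouping seen only after the values were known. Both mice of pair 1 were females, and sex cannot be told apart from the individual mice here. Its part in the Mt2 ratio was not tested.

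Selenop, the secreted protein that carries selenium to cells making enzymes such as Gpx1, had the lowest p of these lists. It was below 0 in 5 of 5 pairs, at -0.86, -0.78, -0.60, -0.39 and -0.30 in pairs 1 to 5, with a mean of -0.58 ± 0.24 (SD, n = 5 pairs), and missed the threshold (adjusted p = 0.0991). The median of 9 selenium genes was -0.01. Among genes that make superoxide or other oxidants the median was -0.22 over 6 genes. Xdh, xanthine dehydrogenase, was below 0 in 5 of 5 pairs (-0.46 ± 0.26, SD, n = 5 pairs, adjusted p = 0.242), and Cyba, a membrane subunit of the phagocyte NADPH oxidase, had -0.26 ± 0.55 (SD, n = 5 pairs, adjusted p = 0.661). Cyba was negative in pairs 1, 2 and 3, at -0.93, -0.52 and -0.46, and positive in pairs 4 and 5, at 0.32 and 0.29. The macrophage median was also negative in pairs 1, 2 and 3 and positive in pair 5, but at -0.61 in pair 4, and its part in the Cyba ratio was not tested.

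Peroxisomal genes, which share their compartment with catalase, had mean ratios that were all positive (7 of 7, median 0.23, 0 passing). Their median was 0.61 in pair 1 and between -0.06 and 0.18 in the other pairs. In pairs 2, 3 and 5 single genes lay on both sides of 0. NADPH supply genes, which feed both glutathione and thioredoxin reduction, had 3 of 3 positive ratios and a median of 0.12. Their medians in pairs 1 to 5 were 1.11, -0.83, -0.75, 0.19 and 0.58, that of pair 2 from Taldo1 alone. Their member Idh1 had 0.12 ± 0.81 (SD, n = 4 pairs), with 1.11 in pair 1 and -0.87 in pair 3. The list of methionine sulfoxide reductases and paraoxonases, which repair oxidised protein and break down oxidised lipid, had a median of 0.07 over 3 genes, with Msra at 0.22 ± 0.23, Pon2 at -0.25 ± 0.36 and Pon3 at 0.07 ± 0.37 (SD, n = 5 pairs).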

How the data were processed

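RNA of mouse aortic arch was amplified, labelled and hybridised to 2-colour slides, scanned on a GenePix 4000B and quantified in GenePix Pro 3.0, then GeneSpring, per the labels. The deposited values are log2 ratios, apoE-null over double-null by the titles. Normalization and the reason for blank cells (49.1% to 67.0% per array) are not stated in the sources used here. Without intensities the depth is unknown, and the number of arrays limits precision.

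Signs were turned to double-null over apoE-null, and the 2 dye-swapped arrays of a pair were averaged (both needed). In pair 1 the numbers of both mice carry exchanged genotypes between arrays, and the genotype labels were followed. Probes with values in at least 3 pairs were averaged by gene and fitted with limma 3.58.1 in R 4.3.3 (lmFit and eBayes, two-sided), with Benjamini-Hochberg adjustment over 4299 genes. The dye effect was fitted likewise, on differences between orientations. The labels number the mice, so the p-values reflect variation between pairs, except in the F test of pair, where it is between arrays. The platform annotation gave the symbols, which were updated through RefSeq (GRCm38.p6). RefSeq also gave the promoters, listed for 7 of the 8 enzymes. Sod3 has none shown. Enzymes, lists and tests were chosen with earlier results of these data known. Lists are described by counts and medians. From the lists, 38 genes were to be named for their role, of which 24 were tested, and the 3 nearest genes by mean absolute difference for the 2 enzymes with the widest ranges. Myd88, Apoe and any list gene that passed (Cd5l) were also named. The 3 red cell genes are all that were tested of their list, and other genes outside the rule are marked where they appear. A planned limma test of the female against the male pairs is given as differences only, as there is 1 female pair. The fit was tested on simulated data. Alternatives were left-out pairs, array-level fits, single orientations, centring, scaling, filters and thresholds.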

Additional observations from a re-analysis of the deposited data

Results flagged for a closer look

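Among the 8 enzymes and their median, 9 sets of 5 pair values, 1 held a value far from the others: Sod3 in pair 3, at 0.50, against -0.36 to -0.21 in the other pairs. Chance alone marks about 1 in 20 such sets. The partner arrays behind it read 0.95 and 0.06. The smooth muscle marker median was also highest in pair 3, at 0.32, and its part in the Sod3 value was not tested.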

How the results depend on the processing

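No enzyme passed under any of 20 alternative settings, and the lowest adjusted p was 0.177, for Gpx4 with no replicate block. The count of all genes passing, 35 here, was 63 with the pair as a replicate block at the array level, 130 with no replicate block, 99 with double-null in channel 2 alone, 7 when 1 array could stand for a pair, 62 at a threshold of 0.1, 0 without pairs 1 and 4 (chosen after seeing the data) and between 0 and 17 when single pairs were left out. The enzyme median stayed between -0.11 and 0.08. Enzymes that changed sign, none of which was called, were Sod2 (-0.0317 to 0.61 over left-out pairs, -0.0894 in the male pairs, -0.29 without pairs 1 and 4), Cat (-0.24 to 0.12 over left-out pairs, 0.0076 with double-null in channel 1), Gpx3 (-0.55 to 0.33 over left-out pairs, 0.0090 with double-null in channel 2) and Sod3 (0.0715 with double-null in channel 1). Sod1, Gpx1, Gpx4 and Prdx1 kept their sign in all of them. The F test of pair called between 2 and 4 enzymes when single pairs were left out. The causes were not tested, beyond the fewer pairs in a fit that leaves some out. No intensities were given, so signal over background is unknown.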

Other observations

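Red cell genes, which mark blood left in the vessel, were above 0 in double-null aorta in every pair. Of all genes with 5 pair values, 10.7% kept 1 sign in all 5 pairs. The erythroid heme enzyme Alas2 had a log2 ratio of 1.19 ± 0.78, the globin Hbb-b2 1.07 ± 0.75 and the globin Hba-a1 0.46 ± 0.33 (SD, n = 5 pairs), and none passed over all genes. Globin genes share sequence, so their probes may not be separate. Of enzymes abundant in red cells, Prdx2 was above 0 in 5 of 5 pairs, while Cat was above 0 in 3 and Gpx1 in 1. The part of blood in these ratios was not tested.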
